A study of Mus musculus with 12 samples.

Results

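8 regulators of fibrinolysis and coagulation were followed across mouse skin wounds held under a film dressing or a patch. They were the plasminogen activators Plau and Plat, the receptor gene Plaur, the inhibitor genes Serpine2 and Serpinb2, the fibrin crosslinking factor gene F13a1, and the anticoagulant genes Thbd and Tfpi. Members were chosen by name and found by matching Ensembl gene IDs to symbols, and all 8 were present among the 54232 gene IDs of each count file. Wounds were made with a 6 mm full-thickness punch on the back of male C57BLKS/J mice homozygous for the db mutation of the leptin receptor (db/db, obese and diabetic), at 12 weeks of age, and the labels give an age of 12.5 weeks for the samples. Tissue was taken on day 10. TD wounds (5 libraries) had Tegaderm, a transparent film dressing, alone. Strain wounds (4 libraries) had a patch described with a strain of about 30%, and No Strain wounds (3 libraries) a patch without strain. All groups therefore carried the db/db genotype, and no lean or unwounded skin was compared here.

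Fibrinolysis dissolves the fibrin clot that first fills a wound. Urokinase (encoded by Plau) and tissue-type plasminogen activator (encoded by Plat) cut plasminogen to plasmin, which digests fibrin and other matrix proteins, and serpin inhibitors trap the activators. Urokinase acts on cell surfaces through its receptor, and in healing skin it is made by keratinocytes moving over the wound and by macrophages. Coagulation is held back by thrombomodulin (Thbd), which turns thrombin toward activating protein C, and by tissue factor pathway inhibitor (Tfpi).

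Upstream sequence is shown for Plaur and Tfpi, the members past the threshold in a comparison, and for Serpinb2, whose level differed most between libraries of a group. Each is the 250 bases before an annotated start in RefSeq (GRCm38.p6), written 5′ to 3′ on the gene's strand, and capitals mark motif matches. RefSeq windows were matched for 5 of the 8 members (Plau, Plat and Thbd had none). Tfpi and Serpinb2 have 2 annotated starts each there, and the upstream one is shown.
Plaur (chr7:24462233-24462482, plus strand): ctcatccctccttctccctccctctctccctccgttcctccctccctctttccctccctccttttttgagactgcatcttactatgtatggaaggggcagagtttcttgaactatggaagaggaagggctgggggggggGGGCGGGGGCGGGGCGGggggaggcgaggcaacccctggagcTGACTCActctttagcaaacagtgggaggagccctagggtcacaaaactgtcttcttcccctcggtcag
Tfpi (chr2:84476760-84477009, minus strand): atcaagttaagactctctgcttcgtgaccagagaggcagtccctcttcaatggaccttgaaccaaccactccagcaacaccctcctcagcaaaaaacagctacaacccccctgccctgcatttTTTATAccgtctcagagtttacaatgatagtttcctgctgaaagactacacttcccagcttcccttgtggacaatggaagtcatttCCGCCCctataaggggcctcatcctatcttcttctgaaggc
Serpinb2 (chr1:107511173-107511422, plus strand): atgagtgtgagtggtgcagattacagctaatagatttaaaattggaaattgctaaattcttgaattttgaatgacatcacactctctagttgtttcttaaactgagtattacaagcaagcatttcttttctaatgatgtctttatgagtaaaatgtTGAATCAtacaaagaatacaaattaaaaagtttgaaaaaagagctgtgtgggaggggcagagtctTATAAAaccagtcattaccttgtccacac

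Motifs were searched on both strands as AP-1 (TGANTCA), CRE (TGACGTCA), NF-kB (GGANNTTCC), the TATA box (TATAAA) and the GC box (GGGCGG). The Plaur window held an AP-1 match beginning 69 bases before the start and 3 GC boxes beginning at 111, 105 and 100 bases, of which the last pair share 1 base. The Serpinb2 window held an AP-1 match beginning 94 bases before the start and a TATA match at 29 bases. The Tfpi window held a TATA match at 127 bases and a GC box at 41 bases. Among 32851 windows of this length in the same RefSeq set, 6.75% held the AP-1 letters, 1.55% CRE, 3.59% NF-kB, 12.4% TATA and 32.7% the GC box. A letter match describes the sequence only.

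Each wound gave 1 poly(A) RNA-seq library, with 20354677 to 25059371 gene counts per library. Levels are given in CPM, read counts relative to the library total after TMM scaling, which evens out differences in RNA composition. The labels do not say which wounds came from the same mouse, so p-values measure the spread between these libraries. Sample titles carry numbers up to 6 in TD and 7 to 15 under patches, so whatever the numbers stand for and the patches cannot be told apart. Skin and wound markers were present throughout, the mean log2 CPM of the 7 basal keratinocyte genes being 8.52 to 9.04 in TD, 7.997 to 8.73 in Strain and 7.72 to 8.35 in No Strain. The fibroblast list (10 genes) lay between 10.27 and 11.03 and the macrophage list (12 genes) between 7.01 and 8.43 over the 12 libraries. For Strain and No Strain against TD, 0 and 1 of 7 differentiated epidermis genes fell, 0 of 6 mast cell genes, 5 and 7 of 8 adipocyte genes and 0 and 5 of 5 erythroid genes tested, and no gene of these lists rose. No fibroblast gene passed. In such whole-tissue RNA, fewer cells of a type and less RNA per cell cannot be told apart.

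All 8 members passed the filter on low counts. Plaur and Tfpi rose in No Strain wounds relative to TD, by 1.69-fold and 1.48-fold, and the other 6 members did not pass an adjusted p of 0.05 there. None of the 8 passed for Strain against TD or for Strain against No Strain in edgeR, where 1 and 0 members had an unadjusted p under 0.05. DESeq2 and limma-voom also called 0 members in both. Over all 18618 genes tested, 17.8% passed for No Strain against TD (9.35% as higher), 12.6% for Strain against TD and 0% for Strain against No Strain, while 8.4% were lower in the first of these and, for Strain against TD, 6.2% were higher and 6.41% lower. Calling 2 of 8 is not a result about the members beyond that background. For Strain against No Strain, 5.61% of all genes had an unadjusted p under 0.05. The median log2 change of the 8 members was 0.0340 for Strain and 0.11 for No Strain against TD, beside 0.0177 and 0.00452 over all genes. The TD libraries enter both comparisons.

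**Figure D1:**
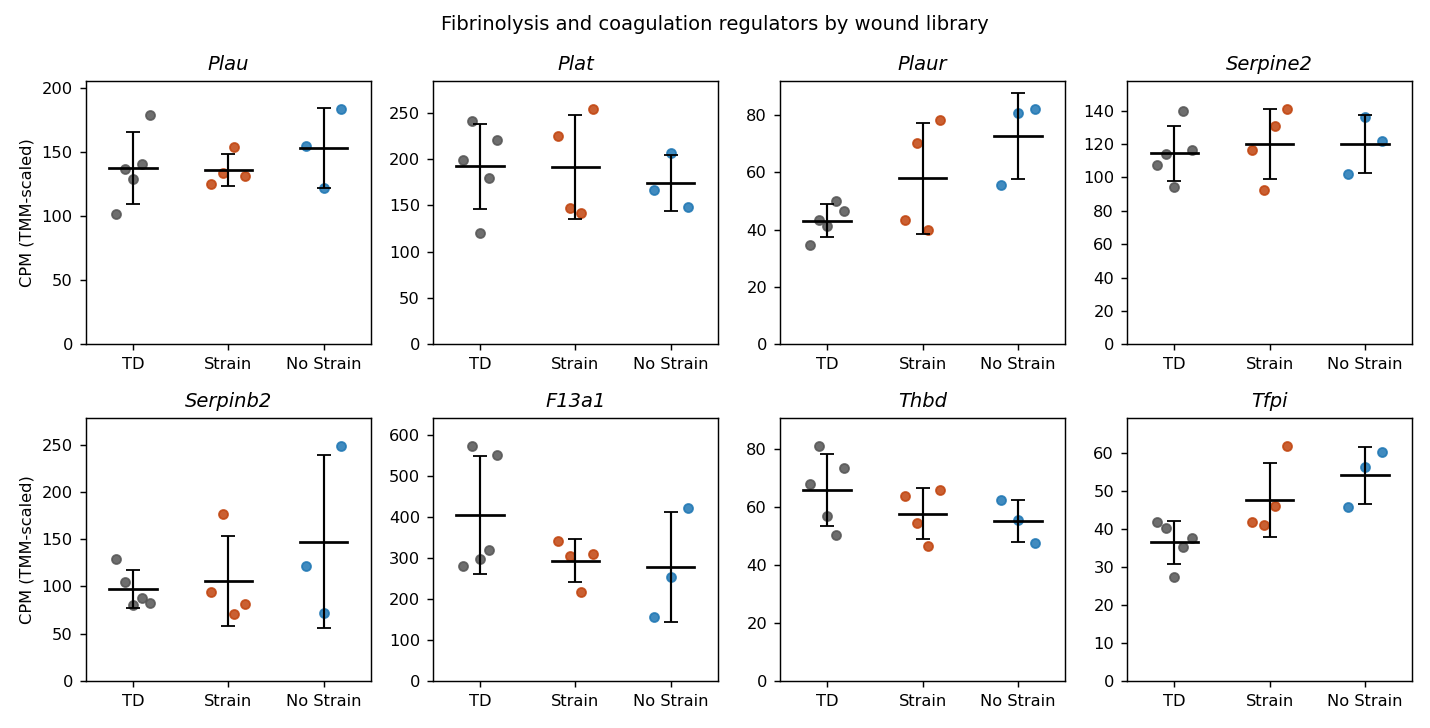
Level of each member in each wound library, in TMM-scaled CPM (vertical axis, from 0) for TD, Strain and No Strain. Points are libraries, horizontal bars group means and whiskers ± 1 SD (n = 5, 4 and 3). For Plaur and Tfpi every No Strain point lies above every TD point, where 26.7% of all genes tested showed no overlap.

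The plasminogen activators were abundant and did not pass the threshold in any of the 3 comparisons. Plau (ENSMUSG00000021822, chr14:20836660-20843385, plus strand) encodes urokinase. Plau stood at 102, 137, 129, 141 and 179 CPM in TD replicates 1 to 5, at 125, 133, 154 and 131 CPM in Strain replicates 1 to 4 and at 154, 122 and 183 CPM in No Strain replicates 1 to 3. The groups overlapped fully, with means of 137 ± 27.8 CPM (SD, n = 5), 136 ± 12.4 CPM (SD, n = 4) and 153 ± 30.9 CPM (SD, n = 3) in the same order. The log2 change of Plau was -0.0168 (standard error 0.153, edgeR adjusted p = 0.955) for Strain and 0.16 (standard error 0.166, edgeR adjusted p = 0.552) for No Strain against TD. The 95% intervals, -0.35 to 0.32 and -0.21 to 0.52, bound how large an unseen change in urokinase mRNA could be.

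Plat (ENSMUSG00000031538, chr8:22757727-22782844, plus strand) encodes tissue-type plasminogen activator, best known from the vessel wall. Plat stood at 199, 241, 120.3, 180.0 and 220.1 CPM in TD replicates 1 to 5, at 225, 147, 141 and 254 CPM in Strain replicates 1 to 4 and at 167, 207 and 148 CPM in No Strain replicates 1 to 3. TD replicate 3 was the lowest library and Strain replicate 4 the highest, and all groups overlapped. Its log2 change was -0.00228 (standard error 0.223, edgeR adjusted p = 0.996) for Strain against TD, with an interval of -0.49 to 0.49. For No Strain against TD it was -0.14 (standard error 0.244, edgeR adjusted p = 0.727), with an interval of -0.68 to 0.39.

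The urokinase receptor gene Plaur (ENSMUSG00000046223, chr7:24462484-24475968, plus strand) encodes a membrane-anchored protein that holds urokinase at the cell surface. Plaur stood at 34.7, 43.5, 41.2, 50.1 and 46.5 CPM in TD replicates 1 to 5, at 43.2, 70.4, 39.8 and 78.4 CPM in Strain replicates 1 to 4 and at 55.6, 80.7 and 82.1 CPM in No Strain replicates 1 to 3. All 3 No Strain libraries exceeded all 5 TD libraries, whereas the Strain libraries split into 2 at TD levels (replicates 1 and 3) and 2 near the No Strain levels (replicates 2 and 4). TD averaged 43.2 ± 5.81 CPM (SD, n = 5), Strain 57.9 ± 19.3 CPM (SD, n = 4) and No Strain 72.8 ± 14.9 CPM (SD, n = 3). Against TD, the log2 change of Plaur was 0.75 (standard error 0.223, edgeR adjusted p = 0.0390) in No Strain, past the threshold, and 0.42 (standard error 0.208, edgeR adjusted p = 0.200) in Strain, not past it. No such separation of libraries from TD was seen in Strain, while 26.7% of all genes tested showed it for No Strain against TD. The direct difference between Strain and No Strain was -0.33 (standard error 0.236, edgeR adjusted p = 0.896), with an interval of -0.85 to 0.19, so the patch groups were not shown to differ.

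The Plaur call was near the threshold and not stable when a library was left out. It was lost in 7 of 12 fits that each left out 1 library (TD replicates 1, 2, 3, 4 or 5, or No Strain replicates 2 or 3), with edgeR adjusted p from 0.0527 to 0.136 and a log2 change of 0.66 to 0.92 over all 12 fits. Skeletal muscle genes, whose list mean is a covariate in 1 alternative fit, fell beside it: 3 of 11 for No Strain and 7 for Strain, with list means of 8.64 to 9.904 log2 CPM in TD, 7.52 to 8.41 in Strain and 8.04 to 8.97 in No Strain. With that covariate the log2 change of Plaur was 0.60 for No Strain against TD (edgeR adjusted p = 0.249). The Strain list means lay wholly below those of TD, so that fit cannot tell muscle level and group apart for Strain. The No Strain means overlapped those of TD only in part. Marker lists of cells that can make the receptor are given beside Plaur. Over all genes, 9.35% were higher for No Strain and 6.2% for Strain against TD. Of 11 neutrophil genes tested, 6 rose for No Strain and 8 for Strain against TD, their mean log2 CPM being 1.45 to 2.45 in TD, 2.86 to 3.78 in Strain and 3.24 to 4.297 in No Strain. Of 12 macrophage genes, 2 rose for No Strain and 1 for Strain. For the 7 wound-activated keratinocyte genes, 2 rose in each comparison with TD. The summed level of the neutrophil list was 369.7 to 1575 CPM in TD, 750.4 to 8518 in Strain and 1816 to 5030.2 in No Strain. Their part in the Plaur difference was not tested.

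The inhibitor genes did not pass the threshold in any comparison. Serpine2 (ENSMUSG00000026249, chr1:79794197-79861180, minus strand) encodes protease nexin-1, which inhibits thrombin, urokinase and plasmin. Serpine2 stood at 107, 114, 94.2, 139.7 and 117 CPM in TD replicates 1 to 5, at 117, 92.2, 131 and 141 CPM in Strain replicates 1 to 4 and at 102, 136 and 122 CPM in No Strain replicates 1 to 3. The group means were nearly level, at 114 ± 16.6 CPM (SD, n = 5), 120.1 ± 21.1 CPM (SD, n = 4) and 120.0 ± 17.2 CPM (SD, n = 3). The log2 change of Serpine2 was 0.0703 (standard error 0.140, edgeR adjusted p = 0.778) for Strain against TD (interval -0.24 to 0.38) and 0.0686 (standard error 0.152, edgeR adjusted p = 0.793) for No Strain against TD (interval -0.26 to 0.40). For Strain against No Strain it was 0.00173 (interval -0.35 to 0.35).

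Serpinb2 (ENSMUSG00000062345, chr1:107511423-107535478, plus strand) encodes plasminogen activator inhibitor 2, a serpin found in keratinocytes and activated macrophages. It was the most uneven member within the patch groups, the highest No Strain library being 3.47 times the lowest and the highest Strain library 2.48 times. Serpinb2 stood at 129, 105, 80.6, 88.2 and 82.5 CPM in TD replicates 1 to 5, at 93.8, 176, 71.2 and 81.5 CPM in Strain replicates 1 to 4 and at 122, 71.6 and 249 CPM in No Strain replicates 1 to 3. Strain replicate 2 and No Strain replicate 3 were high, and the other patch libraries lay within or near the TD range. The coefficient of variation was 20.7% in TD, 45.4% in Strain and 61.9% in No Strain. The log2 change of 0.60 (standard error 0.374, edgeR adjusted p = 0.288) for No Strain against TD rested on replicate 3, without which it was -0.00320. For Strain against TD it was 0.12 (standard error 0.349, edgeR adjusted p = 0.848), and without Strain replicate 2 it was -0.25. In the GENCODE annotation Serpinb2 shares 291 exonic bases with Serpinb10 on the same strand, so a few reads may belong to either gene.

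The fibrin crosslinking gene F13a1 (ENSMUSG00000039109, chr13:36867178-37050244, minus strand) encodes the catalytic chain of factor XIII, a transglutaminase that binds fibrin strands together, made by macrophages and platelets. F13a1 stood at 280.5, 572, 297, 320.0 and 551 CPM in TD replicates 1 to 5, at 341, 304, 217 and 309 CPM in Strain replicates 1 to 4 and at 157, 254 and 421 CPM in No Strain replicates 1 to 3. TD replicates 2 and 5 stood above all the other libraries, and No Strain replicate 1 was the lowest. The means of 404 ± 145 CPM (SD, n = 5), 293 ± 52.9 CPM (SD, n = 4) and 277 ± 134 CPM (SD, n = 3) therefore overlapped in range. Its log2 change was -0.47 (standard error 0.305, edgeR adjusted p = 0.339) for Strain and -0.54 (standard error 0.335, edgeR adjusted p = 0.286) for No Strain against TD, with intervals of -1.13 to 0.20 and -1.28 to 0.19. Beside it, the mean log2 CPM of the macrophage list was 7.01 to 8.16 in TD, 7.897 to 8.33 in Strain and 7.89 to 8.43 in No Strain. Of the 9 platelet and megakaryocyte genes listed, 5 were tested and 0 passed in edgeR in any comparison, with 1 and 2 at an unadjusted p under 0.05 for Strain and No Strain against TD. Their summed level was 73.8 to 89.6 CPM in TD, 39.2 to 100.1 in Strain and 44.9 to 98.04 in No Strain, with Gp1bb at 3 counts or fewer in every library. F13a1 shares 74 exonic bases with a predicted gene on the opposite strand.

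Of the anticoagulant genes, Tfpi passed the threshold for No Strain and Thbd did not pass in any comparison. Tfpi (ENSMUSG00000027082, chr2:84432855-84476775, minus strand) encodes tissue factor pathway inhibitor, an endothelial protein that blocks the start of coagulation. Tfpi stood at 41.8, 40.1, 27.3, 35.3 and 37.5 CPM in TD replicates 1 to 5, at 41.7, 40.9, 45.9 and 61.7 CPM in Strain replicates 1 to 4 and at 45.6, 56.2 and 60.1 CPM in No Strain replicates 1 to 3. Every No Strain library exceeded every TD library, where 26.7% of all genes tested showed no overlap. Strain replicates 1 and 2 lay inside the TD range. TD averaged 36.4 ± 5.63 CPM (SD, n = 5) and No Strain 53.97 ± 7.52 CPM (SD, n = 3), a log2 change of 0.57 (standard error 0.161, edgeR adjusted p = 0.0333). Strain averaged 47.5 ± 9.71 CPM (SD, n = 4), a log2 change of 0.39 (standard error 0.150, edgeR adjusted p = 0.111), with an unadjusted edgeR p of 0.0251. The difference between Strain and No Strain was -0.18 (standard error 0.170, edgeR adjusted p = 0.939), with an interval of -0.56 to 0.19.

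The Tfpi call was lost in 5 of 12 fits that each left out 1 library (TD replicates 3, 4 or 5, or No Strain replicates 2 or 3), with edgeR adjusted p from 0.0513 to 0.126. With the muscle covariate its log2 change was 0.49 (edgeR adjusted p = 0.199). Endothelial markers rose beside it: 7 of 10 passed as higher in each comparison with TD, with a median log2 change of 0.55 for Strain and 0.55 for No Strain. The summed endothelial level was 490.2 to 619 CPM in TD, 637 to 907 in Strain and 704 to 810.3 in No Strain, and no marker on the list was at 3 counts or fewer in every library. Their part in the Tfpi difference was not tested.

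Thbd (ENSMUSG00000074743, chr2:148404466-148408188, minus strand) encodes thrombomodulin, the thrombin receptor of endothelium that keratinocytes also carry. Thbd stood at 67.96, 81.2, 56.96, 50.4 and 73.6 CPM in TD replicates 1 to 5, at 63.8, 54.6, 46.7 and 66.1 CPM in Strain replicates 1 to 4 and at 62.5, 55.7 and 47.8 CPM in No Strain replicates 1 to 3. Its groups overlapped, TD averaging 66.01 ± 12.4 CPM (SD, n = 5), Strain 57.8 ± 8.91 CPM (SD, n = 4) and No Strain 55.3 ± 7.36 CPM (SD, n = 3). The log2 change was -0.19 (standard error 0.150, edgeR adjusted p = 0.425) for Strain and -0.25 (standard error 0.164, edgeR adjusted p = 0.307) for No Strain against TD, neither past the threshold, with intervals of -0.52 to 0.14 and -0.61 to 0.10. Its estimates lay below 0 in both comparisons with TD, where 7 of 10 endothelial markers rose.

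**Figure D2:**
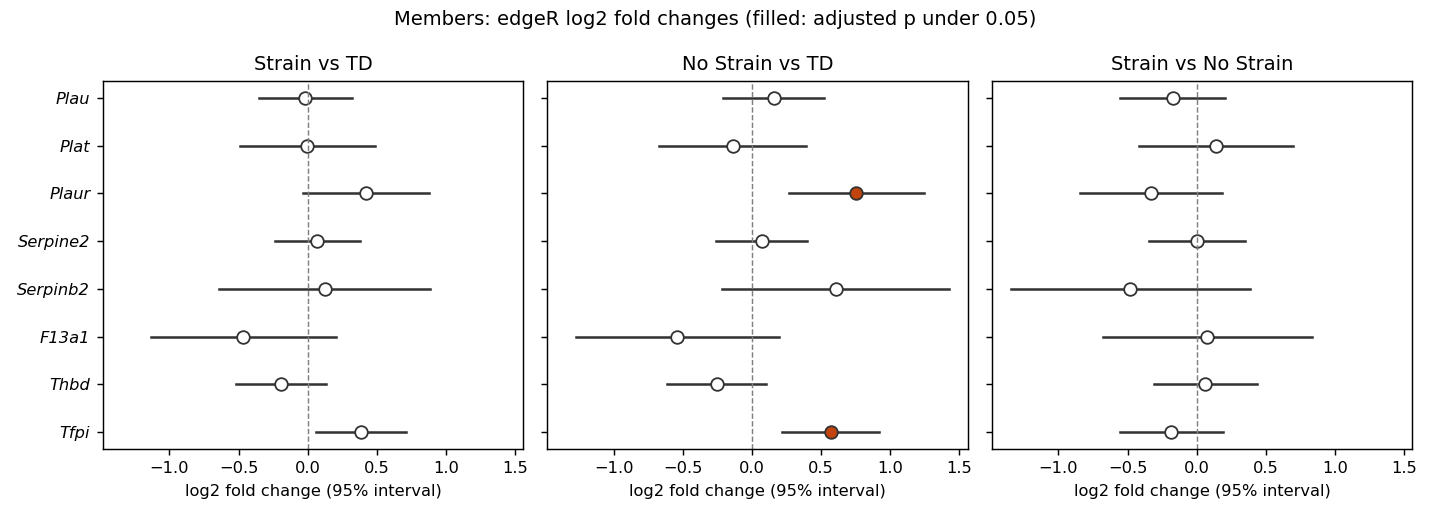
Fitted log2 fold change of each member (horizontal axis) with its 95% interval, in 3 panels for Strain against TD, No Strain against TD and Strain against No Strain. Filled points passed an edgeR adjusted p of 0.05, which only Plaur (0.75) and Tfpi (0.57) did, both for No Strain against TD.

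Levels were set against each other only per kilobase of exon. In TD, F13a1 and Plau led with 59.96 and 58.1 CPM per kb, less apart than the SD of either over the 5 libraries. Serpinb2 followed with 41.3 and Plat with 30.8 CPM per kb. Thbd and Plaur, at 17.7 and 16.5 CPM per kb, again lay within their SDs, and Serpine2 (13.8) and Tfpi (6.66) were the lowest. In No Strain, Plaur at 27.8 CPM per kb was level with Plat at 27.9. These values used the merged exons of all annotated transcripts. Per kb of the longest transcript, Serpine2 in TD was 33.7, F13a1 102 and Plat 47.5 CPM per kb, which moved Serpine2 above both Plaur (21.5) and Thbd (17.7). The order of neighbours thus changed with the length used.

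Ratios within a library do not depend on its scaling and are given as values without a test. The log2 ratio of Plau to Plaur mRNA was 1.55, 1.65, 1.65, 1.49 and 1.94 in TD, 1.53, 0.92, 1.95 and 0.74 in Strain and 1.47, 0.59 and 1.16 in No Strain. TD averaged 1.66 ± 0.174 (SD, n = 5), Strain 1.29 ± 0.557 (SD, n = 4) and No Strain 1.07 ± 0.448 (SD, n = 3), and all 3 No Strain libraries lay below all 5 TD libraries. Ligand mRNA thus exceeded receptor mRNA least in the No Strain libraries and in Strain replicates 2 and 4. No Strain replicate 1 (1.47) lay only just below TD replicate 4 (1.49). Plaur is itself part of this ratio, so the separation is not independent of the Plaur levels. The log2 ratio of Plau to Plat averaged -0.47 ± 0.430 (SD, n = 5), -0.45 ± 0.525 (SD, n = 4) and -0.19 ± 0.541 (SD, n = 3) in the same order, and that of Plau to Serpine2 0.25 ± 0.293 (SD, n = 5), 0.19 ± 0.267 (SD, n = 4) and 0.34 ± 0.438 (SD, n = 3). The groups overlapped in these last 2 ratios. These ratios are of CPM and not per length.

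**Figure D3:**
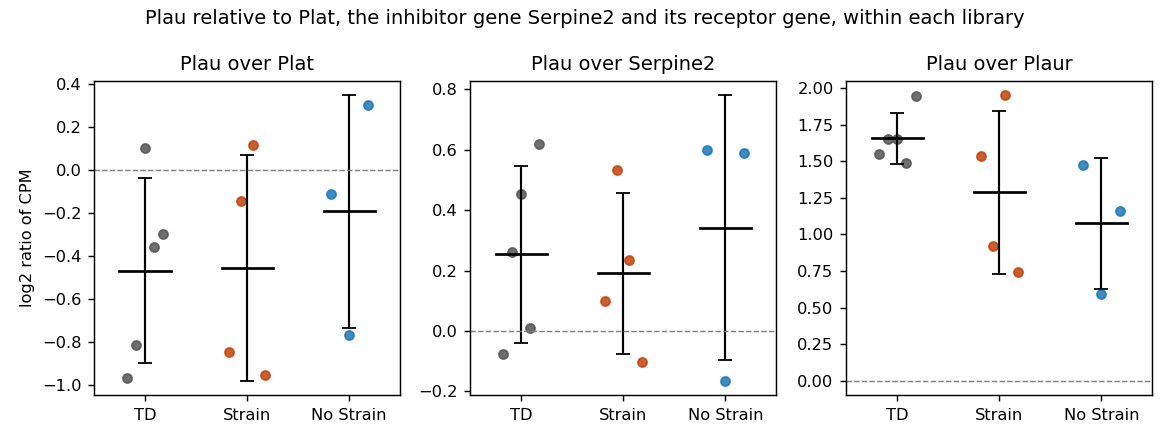
log2 ratio of Plau to Plat, Serpine2 and Plaur within each library (vertical axis) by group, with points for libraries, bars for means and whiskers of ± 1 SD (n = 5, 4 and 3). Only the ratio to Plaur has No Strain points entirely below the TD points, with means of 1.66 in TD and 1.07 in No Strain.

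Members did not move as 1 block across the 12 libraries. Among the 28 pairs, Pearson's r of log2 CPM was highest for Plat and Thbd (0.71) and for Plaur and Tfpi (0.70), and lowest for Serpine2 and Serpinb2 (-0.40). With group means removed the Plat and Thbd value was 0.75 and the Plaur and Tfpi value 0.39. All such values share the same libraries, groups and tissue mixture and are descriptions only. Out of 15669 other genes, those most like Plau included Trem2 and Laptm5 (r = 0.94 and 0.90). Plat was most like Ptprg, Col3a1 and Abhd2 (r = 0.96, 0.95 and 0.94). Plaur was most like A530064D06Rik, Samsn1 and Tmx1 (r = 0.93, 0.92 and 0.91), and Tfpi most like Ost4, Ppp1r3b and C130050O18Rik (r = 0.95, 0.94 and 0.94). The nearest genes to Serpine2 were Tubb3, Lgals1 and Ddah1 (r = 0.95, 0.91 and 0.90), and to Serpinb2 Mrps22, Dlst and Nop16 (r = 0.88, 0.88 and 0.87). For F13a1 they were Sec14l1, Tlr5 and Sbf2 (r = 0.92, 0.92 and 0.91), and for Thbd Nr1h4, Rhou and Tbx5 (r = 0.95, 0.90 and 0.89).

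Other genes of the cascade were taken from a list of 38 chosen by function, of which 35 passed the filter on low counts. For No Strain against TD, 14 rose, 1 fell and 20 did not pass, where 9.35% of all genes were higher and 8.4% lower. In the same comparison 5 of 6 hepatocyte marker genes rose, their summed level being 1.63 to 70.02 CPM in TD and 249 to 287 in No Strain. For Strain against TD, 1 rose (F10), 1 fell (F2rl1) and 33 did not pass. For Strain against No Strain, 0 passed in edgeR, with 4 at an unadjusted p under 0.05 and 0 by DESeq2. The median log2 change was 0.30 for Strain and 0.57 for No Strain against TD, beside 0.0177 and 0.00452 for all genes. By role, 8 of 14 procoagulant genes tested rose for No Strain, 3 of 8 anticoagulants, 2 of 3 inhibitors of fibrinolysis, and 1 of 6 genes for plasminogen and its binding or clearance (Plg).

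**Figure D4:**
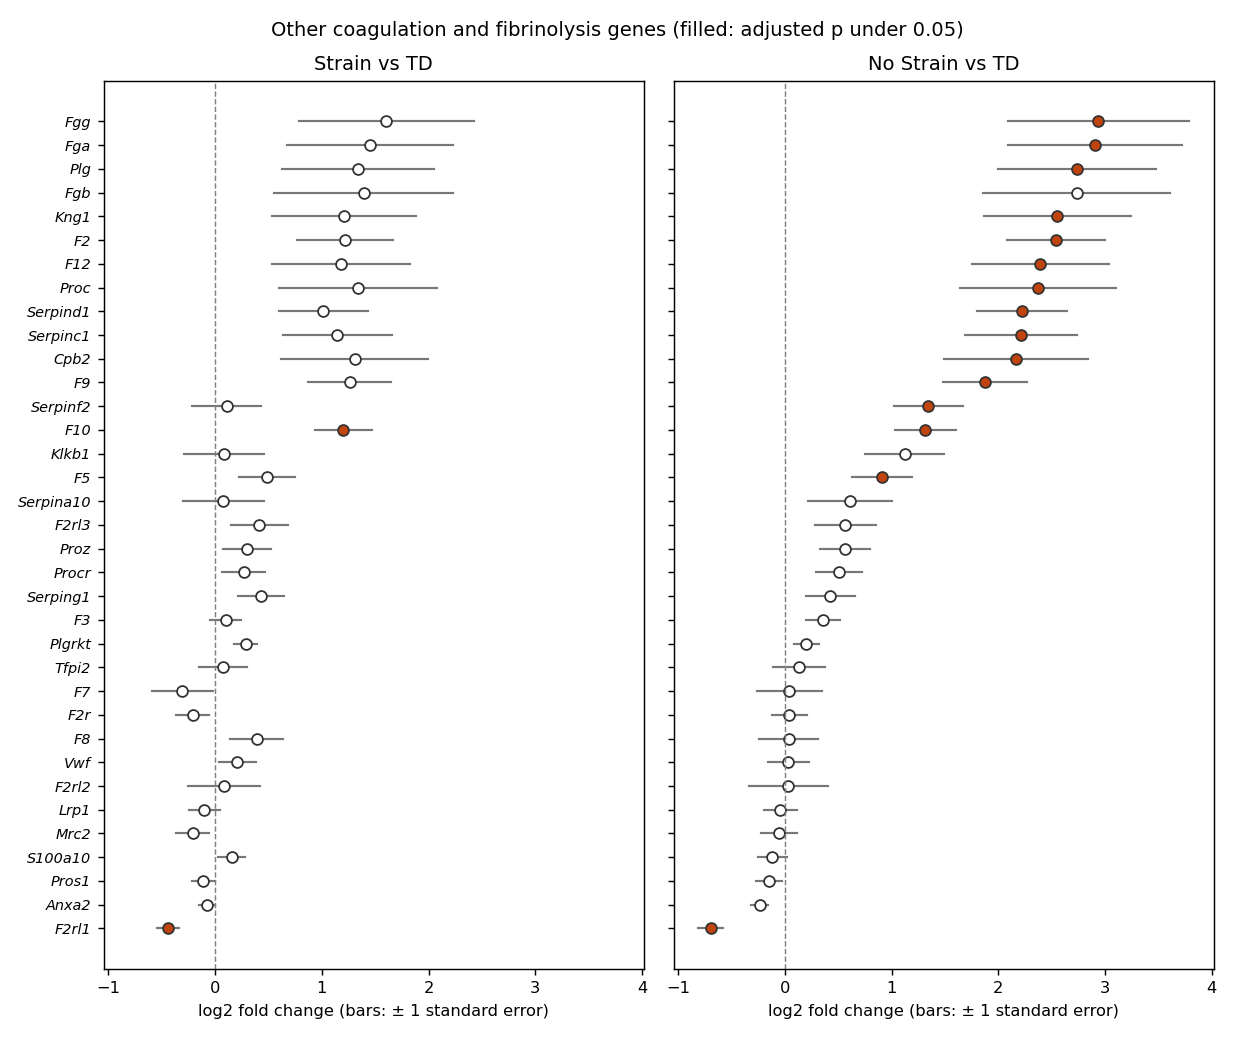
Log2 fold change (horizontal axis) of the 35 tested cascade genes for Strain against TD (left) and No Strain against TD (right), ordered by the right panel, with bars of ± 1 standard error. Filled points passed an edgeR adjusted p of 0.05, 2 on the left and 15 on the right.

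F2rl1 (ENSMUSG00000021678, chr13:95511732-95525227, minus strand), which encodes protease-activated receptor 2, a protease sensor of keratinocytes, fell under both patches. F2rl1 stood at 58.7, 41.6, 42.2, 51.6 and 51.5 CPM in TD replicates 1 to 5, at 33.7, 40.2, 35.8 and 34.8 CPM in Strain replicates 1 to 4 and at 28.5, 33.2 and 29.3 CPM in No Strain replicates 1 to 3. No patch library reached the lowest TD library, a separation that 14.6% of all genes showed for Strain and 26.7% for No Strain. Its log2 change was -0.44 (standard error 0.105, edgeR adjusted p = 0.0225) for Strain and -0.70 (standard error 0.117, edgeR adjusted p = 0.00425) for No Strain. The Strain call was lost without Strain replicate 1 (edgeR adjusted p = 0.0539) or TD replicate 4 (0.0530). With the muscle covariate the Strain value was -0.62 and not past the threshold (edgeR adjusted p = 0.425). That fit cannot tell muscle level and group apart for Strain. With the hepatocyte covariate both calls were lost (edgeR adjusted p = 0.0779 for Strain and 0.0539 for No Strain). Of 7 basal keratinocyte genes, 2 fell for Strain and 3 for No Strain; their part in this fall was not tested. The thrombin receptor genes F2r, F2rl2 and F2rl3 did not pass in either comparison.

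F10 (ENSMUSG00000031444, chr8:13037308-13056676, plus strand), which encodes coagulation factor X, rose under both patches. F10 stood at 9.38, 18.2, 19.97, 12.6 and 16.3 CPM in TD replicates 1 to 5, at 19.1, 46.8, 35.7 and 38.7 CPM in Strain replicates 1 to 4 and at 29.03, 44.8 and 40.3 CPM in No Strain replicates 1 to 3. Only Strain replicate 1 lay inside the TD range. Its log2 change was 1.199 (standard error 0.267, edgeR adjusted p = 0.0181) for Strain and 1.32 (standard error 0.285, edgeR adjusted p = 0.0118) for No Strain. Without Strain replicate 2 the Strain value was 1.02 (edgeR adjusted p = 0.0633). With the muscle covariate both calls were lost (edgeR adjusted p = 0.486 for Strain and 0.0687 for No Strain), as they were with the hepatocyte covariate (0.0930 and 0.136), and with the title letter the Strain call was lost (0.0571).

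F3, encoding tissue factor, which starts coagulation, did not pass in the fit of all 3 groups. It had 75.1, 72.6, 91.1, 79.5 and 74.7 CPM in TD, 73.5, 59.3, 98.04 and 106 CPM in Strain and 106, 94.9 and 101 CPM in No Strain. The No Strain libraries lay above TD, where 26.7% of all genes tested showed no overlap. The log2 change of F3 was 0.36 (standard error 0.158, edgeR adjusted p = 0.136) for No Strain and 0.0976 (standard error 0.146, edgeR adjusted p = 0.699) for Strain against TD. In a fit of only the groups compared, F3 passed for No Strain against TD (log2 change 0.36, edgeR adjusted p = 0.0210).

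The remaining 13 genes past the threshold for No Strain mostly encode plasma proteins made by hepatocytes: prothrombin (F2), fibrinogen chains (Fga, Fgg), plasminogen (Plg), kininogen (Kng1), factors V, IX and XII (F5, F9, F12), protein C (Proc), antithrombin (Serpinc1), heparin cofactor II (Serpind1), alpha-2-antiplasmin (Serpinf2) and Cpb2. For F2, TD averaged 0.945 ± 0.599 CPM (SD, n = 5), Strain 2.19 ± 1.05 CPM (SD, n = 4) and No Strain 5.51 ± 0.506 CPM (SD, n = 3), a log2 change for No Strain of 2.54 (standard error 0.462, edgeR adjusted p = 0.00594). The value for Serpind1 was 2.22 (standard error 0.420, edgeR adjusted p = 0.00657), and for F9 1.87 (standard error 0.393, edgeR adjusted p = 0.0102). Serpinc1 changed by 2.21 (standard error 0.528, edgeR adjusted p = 0.0175), Serpinf2 by 1.34 (standard error 0.324, edgeR adjusted p = 0.0177) and F12 by 2.39 (standard error 0.641, edgeR adjusted p = 0.0269) on the log2 scale. Serpinc1 shares 2942 exonic bases with Zbtb37 on the opposite strand and is uncertain. Plg, the substrate of both activators, had 2.14, 2.34, 0.0797, 0.0404 and 1.403 CPM in TD, 2.04, 1.62, 4.01 and 4.46 CPM in Strain and 8.33, 8.02 and 7.71 CPM in No Strain, a log2 change of 2.74 (standard error 0.739, edgeR adjusted p = 0.0278) for No Strain. Of the 12 fits that each left out 1 library, the call was lost in 1 for Serpinc1 (without No Strain replicate 1), 2 for Serpinf2 (No Strain replicates 1 or 3), 3 each for F12, Plg, Kng1 and Fga (any No Strain library), 4 for Fgg (any No Strain library or TD replicate 1) and 9 each for F5, Proc and Cpb2 (any No Strain library, and others of TD and Strain), with edgeR adjusted p from 0.0505 to 0.218. It was lost in none of them for F2, Serpind1 and F9. With the muscle covariate, however, the calls of Serpind1 and F9 were lost (edgeR adjusted p = 0.0529 and 0.0949). F9 was low, with 8, 7, 6, 2 and 5 raw counts in TD and 17, 27 and 14 in No Strain. Cpb2 was as low, with 8, 2, 1, 0 and 5 in TD and 18, 10 and 13 in No Strain. In TD replicates 3 and 4, F12 had 1 and 0 raw counts, Plg 2 and 1, and Proc 0 and 0, all under a floor of 3 counts. Fga, Fgg and Kng1 also lay under it there, so these large changes rest partly on TD libraries near 0 counts. 13 of the 35 cascade genes had Strain and No Strain libraries that did not overlap, where 5.62% of all genes showed this. All 6 hepatocyte marker genes showed it too. Of the 35 cascade genes, 0 passed in edgeR for Strain against No Strain, and their median log2 change was -0.26.

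Markers of hepatocytes, which skin does not contain, moved with many of these genes, though not equally with all. Raw counts of Alb, encoding albumin, were 1171, 964, 24, 21 and 1036 in TD replicates 1 to 5, 824, 1007, 2444 and 2359 in Strain replicates 1 to 4 and 4407, 4412 and 3723 in No Strain replicates 1 to 3. TD replicates 3 and 4 were nearly devoid of it, Strain replicates 3 and 4 had more than Strain replicates 1 and 2, and the No Strain libraries had the most. F5 kept 92 and 75 raw counts in TD replicates 3 and 4, beside 101, 123 and 141 in TD replicates 1, 2 and 5. Serpinf2 kept 21 and 16, beside 32, 26 and 27. For No Strain against TD, 5 of the 6 hepatocyte genes rose (Ahsg, Apoa1, Serpina1a, Serpina1b and Ttr), and Alb itself did not pass. Of the 6 genes, 0 passed for Strain against TD in edgeR, with 1 at an unadjusted p under 0.05. Their summed level was 1.63 to 70.02 CPM in TD, 61.1 to 160.2 in Strain and 249 to 287 in No Strain. In the 10 libraries other than TD replicates 3 and 4, Fga counts were 6.23% to 8.53% of Alb counts, and Plg counts 3.09% to 5.91%. With the hepatocyte list mean as a covariate, an alternative added after the values were seen, 0 of the 35 cascade genes passed in edgeR, 285 and 205 of all genes did so for Strain and No Strain against TD, and 7 of the 15 genes called for No Strain changed sign. The 8 that kept their sign were F10, F2, F2rl1, F5, F9, Serpinc1, Serpind1 and Serpinf2. With that covariate the log2 change of F10 was 1.28 for Strain and 1.44 for No Strain against TD. That of F2rl1 was -0.50 and -0.78 in the same order, and none of these passed. Plaur and Tfpi did not pass with the covariate either, at log2 changes of 0.86 and 0.23 for No Strain (edgeR adjusted p = 0.225 and 0.583). The list mean was -1.99 to 2.54 log2 CPM in TD, 2.46 to 3.64 in Strain and 4.34 to 4.56 in No Strain. That fit therefore cannot tell hepatocyte level and group apart for No Strain. For Strain the overlap with TD was narrow, so the fit can hardly tell them apart there either. With TD replicates 3 and 4 both left out, 12 cascade genes and 0 members passed for No Strain, and 0 of either for Strain. Whether the hepatocyte RNA was present in the wounds or entered the libraries in another way was not tested, so the higher levels of these plasma protein genes are differences between libraries and not shown to be expression in the wound.

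**Figure D5:**
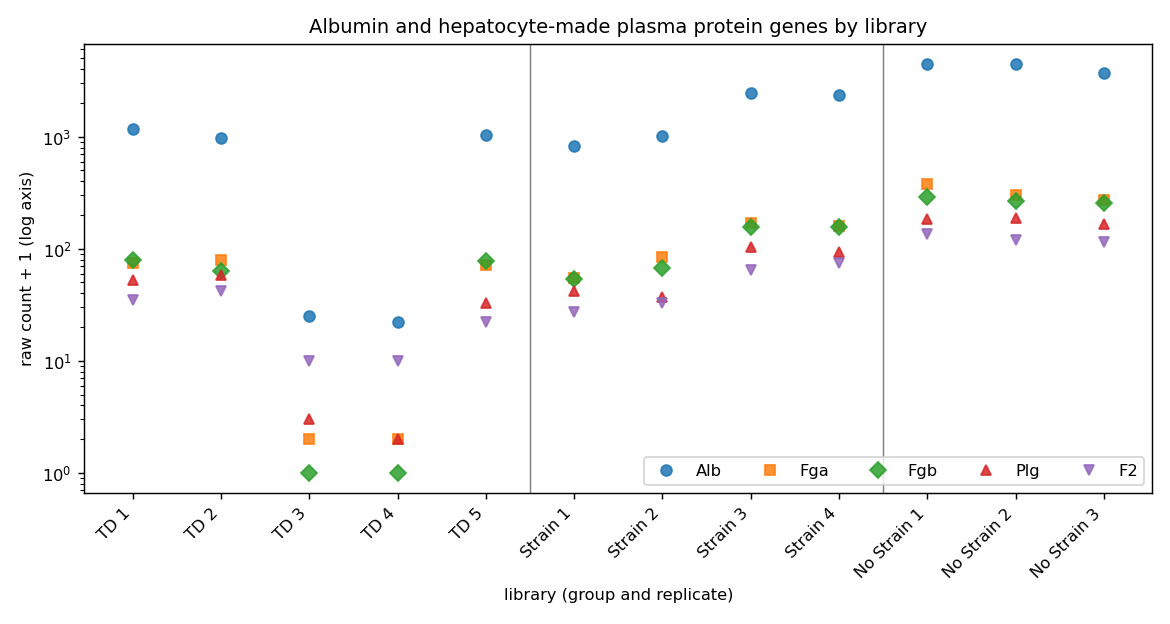
Raw counts plus 1 (vertical log axis) of Alb, Fga, Fgb, Plg and F2 in each of the 12 libraries (horizontal axis, grouped as TD, Strain and No Strain). Alb ranges from 21 counts in TD replicate 4 to 4412 in No Strain replicate 2, and each other gene is lowest in TD replicates 3 and 4 and highest in the No Strain libraries.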

How the data were processed

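Each of the 12 deposited files holds raw counts per Ensembl gene ID for 1 wound, per the file headers. The submitters' processing notes name bcl2fastq 2.17, FastQC, cutadapt, STAR, featureCounts and DESeq2 and the build GRCm38. The annotation release, the strand setting and the rule for reads matching several genes are not given in the sources used here. Symbols, positions and exon lengths were taken from GENCODE M21 (GRCm38), which matched 54079 of 54232 IDs.

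Counts of all 12 libraries were fitted with edgeR 4.0.16 in R 4.3.3: filterByExpr with a minimum count of 10 and total of 15, TMM scaling, and robust quasi-likelihood tests in 1 model of 3 groups. P-values were adjusted by Benjamini-Hochberg over 18618 genes. Standard errors come from the fold change and its F statistic, and 95% intervals from these. Alternatives used DESeq2 1.42.0, limma 3.58.1 (voom), other filters, scalings and covariates (the mean log2 CPM of the muscle or hepatocyte list, or the letter in the sample titles, whose meaning is not given), and the fits leaving out 1 library each. The fits were tested on simulated counts. As a floor on detection, which covers counting error only, 3 counts are at most 0.147 CPM.

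Members, gene lists and tests were chosen with earlier results of these data known. Named were all members, list genes past the threshold (the 8 with the smallest p in full), F3 and Plg, and for each member the 3 genes with the highest Pearson's r of log2 CPM (prior count 2, mean of at least 1 CPM) over 12 libraries. Alternatives with the hepatocyte covariate or without TD replicates 3 and 4 were added after the values were seen. Of the genes this rule and the cascade list would cover, 2 are not reported here.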

Additional observations from a re-analysis of the deposited data

Results flagged for a closer look

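The 5 TD and 4 Strain values of each member, named cascade gene and marker list were screened for a library far from the rest of its group. Of 74 group values, 3 stood apart, where chance gives about 1 in 20, or 3.700. No value of a member was among them. In TD replicate 1 the wound-activated keratinocyte list had a mean log2 CPM of 7.82, against 7.29 in the next TD library. The macrophage list was 8.33 in Strain replicate 2, against 7.95, and the fibroblast list 10.27 in TD replicate 3, below the next at 10.69.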

How the results depend on the processing

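For No Strain against TD, the count of 2 members was 1 with library totals alone, and 0 without a filter on low counts, with the skeletal muscle, title letter or hepatocyte covariate, without TD replicates 3 and 4, and with a minimum log2 change of 1. Across the 12 fits that each left out a library it ran from 0 to 2. The other alternatives kept it at 2. For both comparisons of Strain the count was 0 in every alternative run. The count of 15 cascade genes for No Strain was 0 with the hepatocyte covariate, 2 with the muscle covariate (F2 and F2rl1), 5 with a mean of at least 5 CPM (Anxa2, F10, F2rl1, F5 and Fga), 7 with the title letter and 9 without a filter, and ran from 5 to 16 without 1 library. The count of 2 for Strain was 4 by DESeq2 (adding F2 and F9), 1 with the title letter (F2rl1), 1 with a minimum log2 change of 1, 0 with the muscle or hepatocyte covariate or without TD replicates 3 and 4, and 1 to 2 without 1 library. For all of these the cause was not tested.

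Over all genes, the counts of 2349 for Strain and 3305 for No Strain against TD became 1 and 802 with the muscle covariate, 285 and 205 with the hepatocyte covariate, 798 and 2145 with the title letter, 334 and 1384 without TD replicates 3 and 4, and 860 and 1254 with a minimum log2 change of 1. The muscle list means of TD and Strain did not overlap, so the fit with that covariate cannot tell muscle level and group apart for Strain. Without a filter the Strain count was 1527. Leaving out 1 library gave 882 to 2458 for Strain and 1505 to 3415 for No Strain. Between Strain and No Strain, 33 genes passed in DESeq2 and 0 in edgeR. With library totals alone, 1257 of 3303 calls for No Strain were higher, against 1741 of 3305.

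The following estimates, none of which had passed the threshold, changed sign. For Strain against TD, Plau was 0.14 and Serpinb2 -0.19 with the title letter, Plat 0.000873 in a fit of only the groups compared, Serpinb2 -0.00168 without TD replicates 3 and 4, and Serpine2 -0.10 and F5 -0.32 with the muscle covariate. For No Strain against TD, Serpine2 was -0.0257 with the muscle covariate. For Strain against No Strain, the muscle covariate gave -0.28 for Plat, -0.0758 for Serpine2, -0.24 for F13a1 and -0.15 for Thbd, and Serpine2 was -0.00353 by DESeq2, -0.00353 with its size factors, -0.00323 without a filter and -0.00234 without TD replicates 3 and 4. Leaving out 1 library gave, for Strain against TD, -0.11 to 0.0959 for Plau, -0.17 to 0.10 for Plat, -0.0149 to 0.17 for Serpine2, -0.25 to 0.26 for Serpinb2, -0.0299 to 0.23 for F3 and -0.24 to 0.29 for Serpinf2. For No Strain against TD it gave -0.0367 to 0.17 for Serpine2 and -0.00320 to 0.93 for Serpinb2. For Strain against No Strain it gave -0.0249 to 0.28 for Plat, -0.11 to 0.10 for Serpine2, -0.85 to 0.13 for Serpinb2, -0.22 to 0.51 for F13a1, -0.0323 to 0.15 for Thbd and -0.29 to 0.0862 for F10. No paired analysis was possible because the labels do not say which wounds came from the same mouse.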
